A study of Schizosaccharomyces pombe with 2 samples.

Results

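The phosphate acquisition genes described here are 6 genes of fission yeast (Schizosaccharomyces pombe): the acid phosphatase gene pho1, the transporter genes pho84 and tgp1, the regulator genes pho7 and csk1, and the polyphosphate gene vtc4. They were chosen by gene symbol, and 6 of 6 have a probe among the 5057 gene probes of the arrays. Each has 1 probe with 3 spots, each was well above background in both strains on both arrays, and so 6 of 6 were among the 4964 genes tested.

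The compared strains were ESY173, which lacks mga2 (mga2Δ below), and its control KGY425 (WT below). The Mga2 protein switches on genes of lipid metabolism. Cultures of both were in log phase in YES, a rich medium, and spent 1.5 h in an anaerobic chamber. The sample labels call KGY425 wild type, whereas the series' design text lists a deletion of sre1, which encodes an SREBP (a sterol-responsive transcription factor), in both strains. RNA of 2 biological replicate pairs was hybridised to 2 two-colour Agilent arrays with the dyes swapped: the mga2Δ RNA carried Cy5 on array 1 and Cy3 on array 2. The phosphate content of the medium is not part of the labels, and no phosphate-starved sample and no sample with oxygen was analysed here.

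Fission yeast cells that run short of phosphate raise a small set of genes, the PHO regulon. Pho1 is an acid phosphatase of the cell surface that frees phosphate from organic compounds, Pho84 carries inorganic phosphate across the plasma membrane, and Tgp1 takes up glycerophosphodiesters. Pho7 is the zinc-finger activator that binds upstream of these genes, and Csk1 is a kinase that activates other cyclin-dependent kinases and has been tied by genetics to low pho1 expression in phosphate-rich medium. When phosphate is plentiful, transcription of long non-coding RNAs that start upstream of pho1, pho84 and tgp1 runs into these genes and keeps them low. Vtc4 is a subunit of the vacuolar complex that makes polyphosphate, the cell's phosphate store, and is the catalytic subunit in Saccharomyces cerevisiae.

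The labels were first checked against the deleted gene. The mga2 log2 ratio of mga2Δ over WT was −7.27 on array 1 and −6.13 on array 2, with at most 1 of 3 spots well above background in mga2Δ and 3 of 3 in WT. The mga2 transcript was thus at least 84.95-fold lower in mga2Δ, taking for mga2Δ the dimmest detected probe's signal or that of mga2 itself, whichever was higher. For sre1, 0 of 3 spots were well above background in mga2Δ and 0 of 3 in WT on each array. A low signal alone does not show a deletion. Median signals of gene spots were 2322.5 and 858 in mga2Δ on arrays 1 and 2, against 897.5 and 1579 in WT, and the median at negative control spots was between 18 and 62 in either strain. No gene spot was saturated. Precision is limited by the number of arrays. Means and SDs are taken over the 2 arrays, which leaves 1 residual degree of freedom for each gene. The 95% intervals do not come from these SDs. They use limma's moderated standard error, which borrows variance from all tested genes, with 6.62 degrees of freedom, of which 5.62 are prior.

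The surface enzyme and both transporters were higher in mga2Δ. The mean log2 ratios of mga2Δ over WT were 0.96 for pho1, 0.72 for tgp1 and 0.67 for pho84, which is 1.95-fold, 1.64-fold and 1.60-fold. The activator gene pho7 was 1.22-fold higher and passed the test by a narrow margin, while csk1 (1.07-fold) and vtc4 (1.07-fold) did not pass. By limma's moderated test with Benjamini-Hochberg adjustment over all tested genes, 4 of the 6 genes were raised and 0 were lowered at an adjusted p of 0.05, where 18.4% of all tested genes were raised, 10.9% were lowered and 29.3% passed in either direction. The median of the 6 mean log2 ratios was 0.48, beside 0.0041 over all tested genes. The log2 ratio was above 0 on both arrays for 6 of the 6 genes and for 40.1% of tested genes. None of the 6 was at least 2-fold higher on both arrays, as 179 tested genes were.

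Normalized channel signals are given on a log2 scale, and the level of one probe cannot be set against that of another. With 2 values per strain, a lack of overlap between strains says little, and its share over all tested genes is not given here. For pho1 they were 12.50 and 12.61 in mga2Δ on arrays 1 and 2, against 11.34 and 11.85 in WT. Both mga2Δ values lay above both WT values, and WT varied more between arrays than mga2Δ did. Because the dyes were swapped, a difference between the arrays, in a strain's signal or in a ratio, cannot be told apart from a dye effect. The log2 ratio was 1.16 on array 1 and 0.76 on array 2. The spots used spanned 1.15 to 1.18 on array 1 and 0.72 to 0.80 on array 2, where only 2 of 3 spots were used. The gap between the arrays was thus wider than the range of the spots within either. The mean of 0.96 ± 0.28 (SD, n = 2 arrays) had a 95% interval of 0.68 to 1.24 and a limma adjusted p of 0.00165. In the order of mean ratios pho1 stood at rank 231 of 4964, above 95.4% of tested genes.

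**Figure D1:**
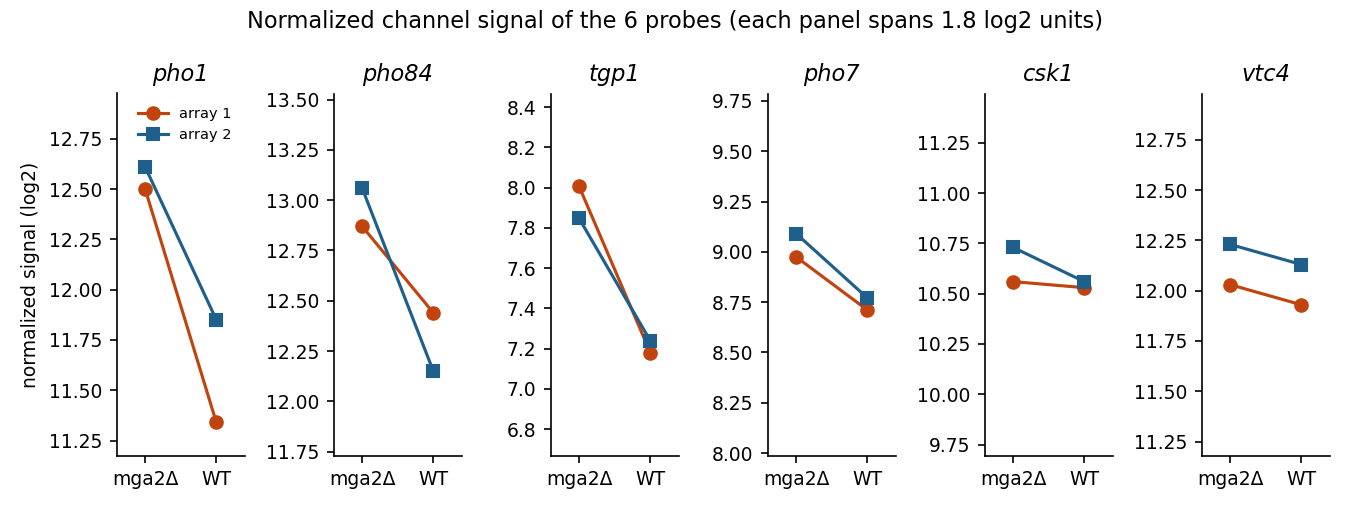
Normalized channel signal (log2, vertical axis) of each probe in mga2Δ (left of each panel) and WT (right), with 1 line per array and panels of equal height. The lines of pho1, pho84 and tgp1 fall steeply towards WT, and those of csk1 and vtc4 are nearly level.

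The pho84 signals were 12.87 and 13.06 in mga2Δ on arrays 1 and 2, against 12.44 and 12.15 in WT. The strains did not overlap, and here too WT spread more than mga2Δ. The log2 ratios were 0.43 and 0.92, with spots between 0.38 and 0.46 on array 1 and between 0.86 and 1.00 on array 2. Their mean was 0.67 ± 0.35 (SD, n = 2 arrays; 95% interval 0.36 to 0.98, limma adjusted p = 0.0106). Array 1 gave the larger ratio for pho1 and array 2 for pho84, so the arrays did not differ in one common direction for these 2 genes. The distance between arrays was 0.40 for pho1 and 0.49 for pho84, larger than in 92.2% and 95.8% of tested genes, whose median distance was 0.14.

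The tgp1 probe was the dimmest of the set. Its median spot signals before background correction were 388 and 140 in mga2Δ on arrays 1 and 2, over a local background of 58 and 13, against 79 and 168 in WT, over 15 and 66. After normalization the log2 signals were 8.01 and 7.85 in mga2Δ, against 7.18 and 7.24 in WT, with no overlap. The log2 ratios of 0.83 and 0.61 had a mean of 0.72 ± 0.15 (SD, n = 2 arrays; 95% interval 0.48 to 0.95, limma adjusted p = 0.00278). The offset of 50 added in background correction draws the ratios of dim probes towards 0. With an offset of 16 the mean was 0.89, and with processed signals from the scanner, which have no such offset, it was 1.03. Without background correction it was 0.82, and in the deposited ratios 0.78.

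**Figure D2:**
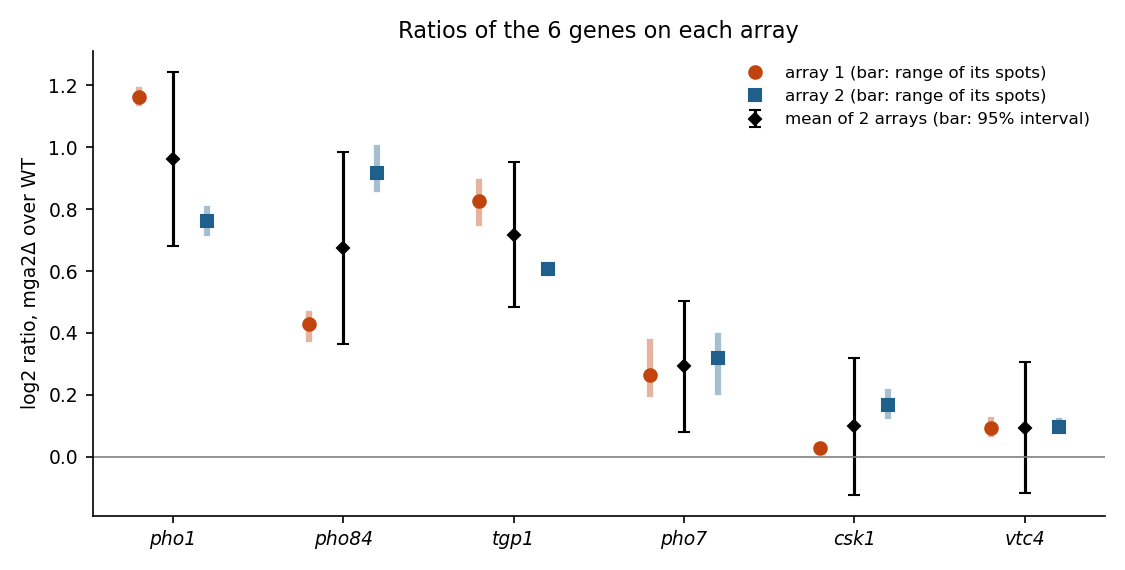
Log2 ratio of mga2Δ over WT for each gene on array 1 (circle) and array 2 (square), with coloured bars for the range of the spots used on that array and a diamond with its 95% interval for the mean of both arrays. The intervals of pho1, pho84, tgp1 and pho7 lie above 0, and those of csk1 and vtc4 cross it.

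Of the regulators, pho7 had log2 signals of 8.97 and 9.09 in mga2Δ on arrays 1 and 2, against 8.71 and 8.77 in WT. The groups did not overlap, and the log2 ratios of 0.26 and 0.32 lay close together. The mean was 0.29 ± 0.04 (SD, n = 2 arrays; 95% interval 0.08 to 0.50). The limma adjusted p of 0.0499 lay at the threshold, and pho7 did not pass in 5 of 13 alternative settings, for example when probes had to be above background in both channels (adjusted p = 0.0503) or with the deposited ratios (0.24, adjusted p = 0.108). The kinase gene csk1 had signals of 10.56 and 10.73 in mga2Δ, against 10.53 and 10.56 in WT, so the lower mga2Δ value and the higher WT value were equal to 2 decimals. Its log2 ratios were 0.03 and 0.17, with 2 of 3 spots used on array 1, and its mean of 0.10 ± 0.10 (SD, n = 2 arrays; 95% interval −0.12 to 0.32) did not pass (limma adjusted p = 0.46). The interval allows a ratio from 0.92-fold to 1.25-fold.

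The polyphosphate gene vtc4 gave the closest match between arrays, with log2 ratios of 0.09 and 0.10 (SD 0.0025, n = 2 arrays). Its signals were 12.03 and 12.23 in mga2Δ, against 11.93 and 12.13 in WT, so each mga2Δ value was above the WT value of its own array but the groups overlapped. The mean of 0.09 had a 95% interval of −0.12 to 0.30 and did not pass (limma adjusted p = 0.464), which allows a ratio from 0.92-fold to 1.24-fold. Neighbours in the order of the mean ratios (pho1, tgp1, pho84, pho7, csk1, vtc4) had overlapping intervals. The intervals of pho1, tgp1 and pho84 did not overlap those of csk1 and vtc4, though the difference between genes was not tested.

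**Figure D3:**
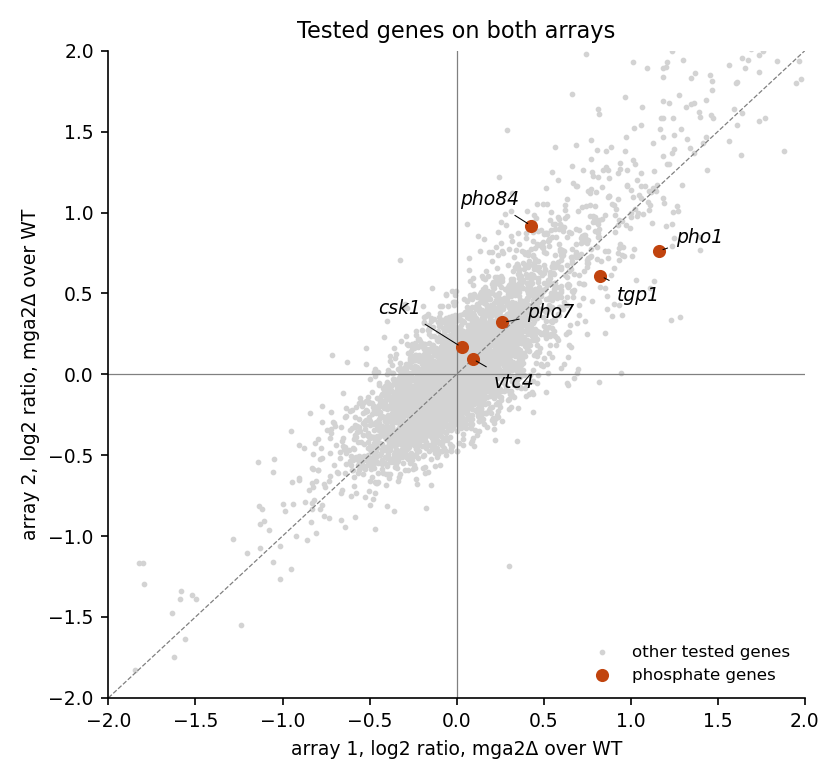
Log2 ratio of mga2Δ over WT on array 1 (horizontal) and array 2 (vertical) for the tested genes, with the 6 phosphate genes in colour and a dashed line of equal ratios; 96 genes lie outside the axes. The phosphate genes lie above 0 on both axes, with pho1 and tgp1 below the line and pho84 above it.

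The arrays hold a probe for 1 of the regulatory non-coding RNAs, prt2, whose transcription starts upstream of pho84. Its values were looked up after those of the 6 genes were seen. The prt2 log2 signals were 9.53 and 9.57 in mga2Δ on arrays 1 and 2, against 9.50 and 9.34 in WT. The log2 ratios of 0.03 and 0.23 (mean 0.13 ± 0.14, SD, n = 2 arrays) did not pass the test (limma adjusted p = 0.36), though spike-in centring called it (adjusted p = 0.0408). The non-coding RNA genes next to pho1 and tgp1 have no probe among those analysed here.

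A list of related genes held those of phosphate transport, SPX-domain proteins, polyphosphate and inositol pyrophosphates, and also pgc1 and gde1, described below. In this list 5 genes passed the test, and all 5 were higher in mga2Δ. Inositol pyrophosphates are signalling molecules that SPX-domain proteins bind and that report the phosphate state of the cell. Of the 9 genes of this list tested beside the 6, 5 were raised and 0 lowered (background 18.4% and 10.9%). Their median log2 ratio of 0.30 stayed above 0 in each of the 12 other fits. The count of raised genes was less stable, with 0 under median centring, where 146 of all 4964 tested genes were raised, against 915 as reported. It was 3 with the deposited ratios (750 of all tested genes) or halved prior degrees of freedom (493). It was 4 with processed signals (886) or a normexp offset of 16 (951), and 8 under spike-in centring (1818). The largest mean ratios were those of pgc1, named after a phosphatidylglycerol phospholipase of Saccharomyces cerevisiae (0.89 ± 0.02, SD, n = 2 arrays, limma adjusted p = 0.000672), and pqr1, an SPX-domain protein (0.79 ± 0.11, adjusted p = 0.0014). The pho84 relative pho842 followed (log2 ratios of 0.69 and 0.75), a call lost under median centring (0.38, adjusted p = 0.354). The gene gde1, named after a glycerophosphocholine phosphodiesterase of Saccharomyces cerevisiae (0.53 and 0.25), was raised too (limma adjusted p = 0.0336). Of 12 other fits, 9 shared this call. The fifth was nrf1, a small subunit of the polyphosphate complex to which Vtc4 belongs (0.28 and 0.33), near the threshold (limma adjusted p = 0.0445). Another subunit gene of that complex, vtc2, had a log2 ratio of 0.16 and did not pass. The inositol pyrophosphate enzymes asp1, a kinase, and aps1, a hydrolase, had ratios of 0.16 and −0.13 and did not pass (adjusted p = 0.22 and 0.311). Whether the pho84 and pho842 probes separate these 2 related genes was not tested.

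Of the factors that act on the non-coding RNAs upstream of the phosphate genes, ssu72 and mmi1 passed the test. These factors are 3′-end processing and termination factors, whose loss lets pho1 rise or fall in phosphate-rich medium, and RNA elimination factors. Of the 18 reported here, 2 were lowered and 0 raised (background 10.9% and 18.4%), so the lowered share was near that of all tested genes. The median log2 ratio of −0.10 turned to 0.09 under spike-in centring. The lowered genes were ssu72, a phosphatase of the RNA polymerase II tail (log2 ratios of −0.61 and −0.75, limma adjusted p = 0.00277), and mmi1, an RNA-binding protein that sends transcripts to decay (−0.41 and −0.47, adjusted p = 0.0127). Under spike-in centring mmi1 stood at −0.26 and was not called (adjusted p = 0.0591). Next in size were rrp6, an exosome nuclease (mean −0.18), and ysh1, the nuclease that cleaves transcripts at their 3′ end (−0.17), neither of which passed here. In the deposited ratios ysh1 stood at −0.57 and was lowered (limma adjusted p = 0.00578).

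Among 11 genes of kinases of the RNA polymerase II tail, their cyclins and CDK-activating kinases, which include the relatives and targets of Csk1, 1 was raised and 0 were lowered (background 18.4% and 10.9%). The lowered genes numbered 5 with the deposited ratios, 3 with processed signals or with trend and robust eBayes, and 2 with scale normalization. Over all 4964 tested genes, 1138, 812, 921 and 695 were lowered in these settings, in that order, against 541 as reported. In the list 0 genes were raised in the deposited ratios, with processed signals, under median centring or with halved prior degrees of freedom. Over all tested genes, 750, 886, 146 and 493 were raised there. The list's median log2 ratio of −0.14 turned to 0.04 under spike-in centring. The raised gene was pmh1, an assembly factor of the kinase module of TFIIH (0.25 and 0.34, limma adjusted p = 0.0483), a call that 8 of 12 other fits shared. The cyclin gene pch1 (mean −0.29), lsg1 (−0.28) and the kinase gene mcs6 (−0.24) did not pass here. Of 6 other phosphatase genes, 1 was lowered and 0 were raised (background 10.9% and 18.4%), with a median of 0.10 that turned to −0.13 with median centring. Scale normalization, spike-in centring and trend and robust eBayes each had 1 raised gene as well, where 1062, 1818 and 1168 of all tested genes were raised. The lowered gene was pho4, the acid phosphatase that thiamine represses (log2 ratios of −0.58 and −0.74, limma adjusted p = 0.00332). The acid phosphatase genes pho1 and pho4 thus had ratios of opposite sign on both arrays. The other members with the largest ratios, pho2 (0.27), the pyrophosphatase gene ipp1 (0.14) and the vacuolar phosphatase gene pho8 (0.12), did not pass, and all 3 turned below 0 with median centring.

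The genes around the members were read in the order of a RefSeq gene table. The 2 annotated genes on each side of each member made 21 genes other than members, of which 8 code for proteins and were tested, with 0 raised and 3 lowered (background 18.4% and 10.9%). The 3 were SPBC1271.10c beside tgp1 (mean log2 ratio −0.83, adjusted p = 0.0041), rpl3402 beside vtc4 (−0.47, adjusted p = 0.00993) and tom7 beside pho7 (−0.33, adjusted p = 0.0328). The tom7 call held in 9 of 12 other fits, over which its ratio ranged from −0.73 to −0.15. Under median centring 0 of the 8 genes passed, beside 172 of all 4964 tested genes. The tested neighbours that did not pass were flx1 (−0.18) and cbp4 (0.17) beside pho7, cct2 (0.19) and pis1 (−0.07) beside csk1, and ade6 (−0.18) beside vtc4.

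The pho84 and pho1 genes lie side by side on chromosome II, with a non-coding RNA gene between them. Because most annotated neighbours there have no probe, the 8 tested genes on each side of pho1 were also read, a choice made after the values were seen. Of the 8 genes after pho1, in the direction away from pho84, 7 were raised and 1 was lowered (background 18.4% and 10.9%), with a median log2 ratio of 1.36, against 0.0041 over all tested genes. Under median centring 2 of these 8 were raised and 0 lowered, and with halved prior degrees of freedom 4 were raised and 1 lowered. Over all 4964 tested genes, 146 were raised and 26 lowered under median centring, and 493 and 176 with halved prior degrees of freedom. When probes had to be above background in both channels, only 6 of the 8 were tested, of which 5 were raised and 1 lowered. Of all 4892 genes tested there, 896 were raised and 536 lowered. The gene next to pho1, fub2, had log2 ratios of 2.17 and 1.97. Its WT signal was well above background in 3 of 3 spots on array 1 and in 0 of 3 on array 2, so the array 2 ratio has only a bound, and its mean ranged from 2.07 to 4.63 over the 11 other fits that tested it. The gene SPBPB2B2.08, the seventh, had 3.46 and 3.98. The run ended at pan5, which was lowered (−0.47 and −0.58). Of the 8 genes before pho1, which begin with pho84 and prt2, 4 were raised and 1 was lowered, with a median of 0.34. The raised genes among these 8 numbered 0 under median centring and 7 under spike-in centring, where 1818 of all 4964 tested genes were raised. After pho1 there are 25 tested genes to the end of the chromosome.

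Around tgp1 the picture was more mixed. Its nearest tested gene on one side, SPBC1271.08c, had log2 ratios of 0.83 and 0.70 and was raised (limma adjusted p = 0.00153), about as much as tgp1 (0.83 and 0.61). The gene on its other side, SPBC1271.10c, was lowered, with −1.05 and −0.60. Of the 8 tested genes on each side, 3 were raised and 0 lowered on the side of SPBC1271.08c, and 1 was raised and 4 were lowered on the other (background 18.4% and 10.9%). Under median centring the counts were 0 and 0 on the first side, 1 and 0 on the other, and 146 and 26 over all tested genes. Whether the neighbouring values share a source with those of pho1 and tgp1 was not tested.

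**Figure D4:**
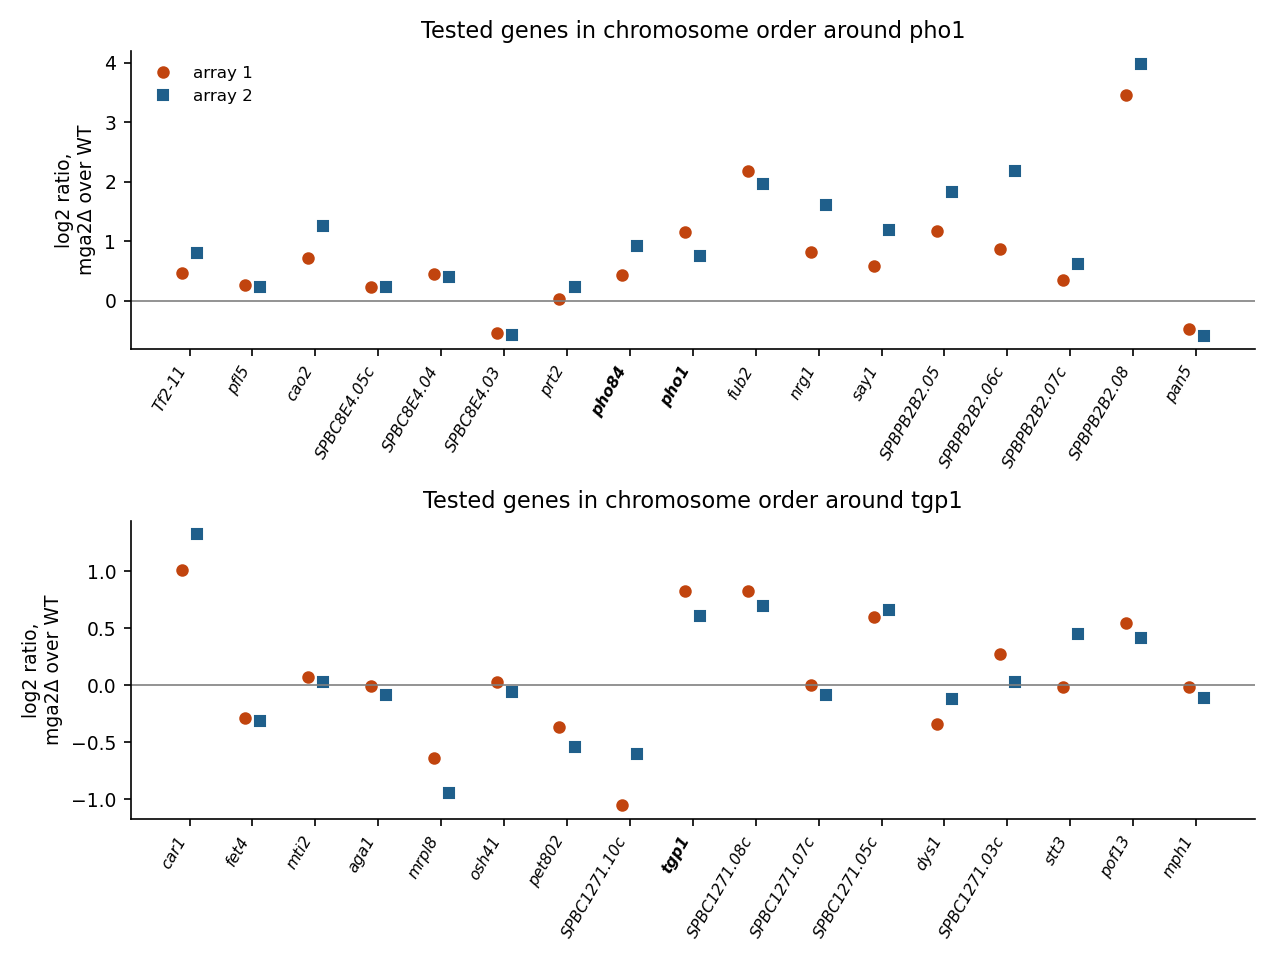
Log2 ratio of mga2Δ over WT on array 1 (circles) and array 2 (squares) for pho1 (top) and tgp1 (bottom) and the 8 tested genes on each side, in chromosome order without distances. The genes from pho84 to SPBPB2B2.08 lie above 0 on both arrays, whereas the neighbours of tgp1 lie on both sides of 0.

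The genes whose pair of array ratios lay closest to that of pho1, by Euclidean distance over the 2 arrays, were SPCC584.16c (1.24 and 0.79), mde7 (1.25 and 0.84) and SPBCPT2R1.02 (1.02 and 0.78). The distances were 0.081, 0.12 and 0.14 log2 units. With 2 arrays such closeness means a similar pair of ratios and no more, and for mde7 it held in some settings and not in others: its mean was 2.46 in the deposited ratios and 2.83 with processed signals, where pho1 had 0.91 and 0.94.

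The ratios of pho1, pho84, tgp1 and pho7 were above 0 in each of the 13 alternative settings, and those of csk1 and vtc4 were as well. The calls held less widely. With median centring in place of loess, pho1 (0.87, adjusted p = 0.152), pho84 (0.52, adjusted p = 0.162), tgp1 (0.78, adjusted p = 0.11) and pho7 (0.33, adjusted p = 0.276) did not pass, at ratios of similar size. When the prior degrees of freedom were halved to 2.81, pho1 and tgp1 passed and pho84 (adjusted p = 0.0661) did not. Centring on the spike-in RNAs moved the median of tested genes up by 0.19 (log2). Under it 6 of the 6 genes were raised, as were 1818 of all 4964 tested genes, against 915 as reported.

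**Figure D5:**
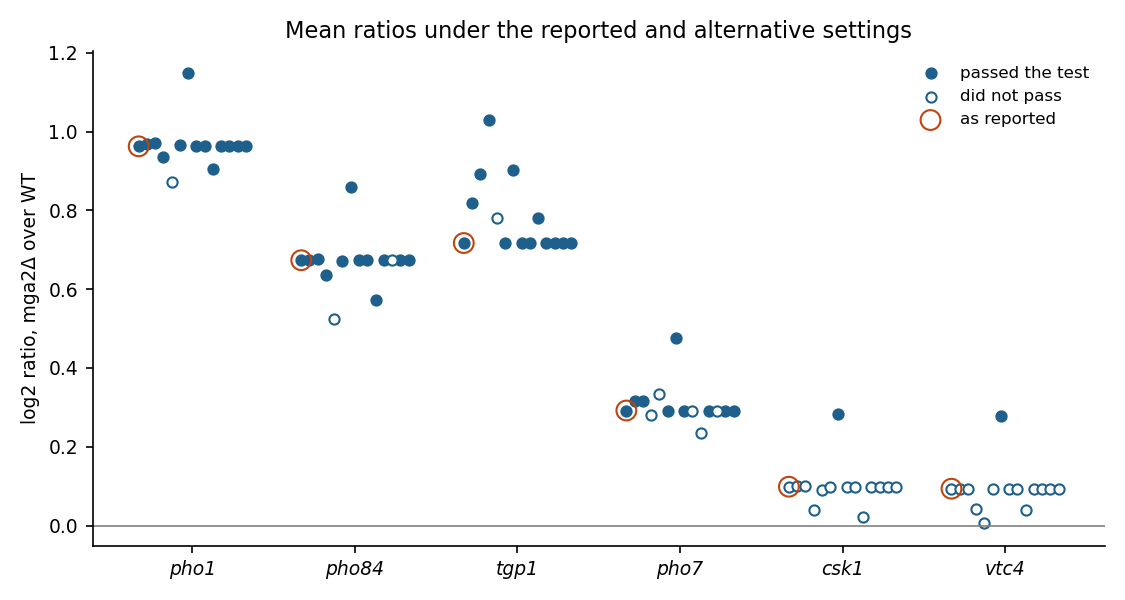
Mean log2 ratio of mga2Δ over WT of each gene under the reported setting (ringed) and 13 alternatives, filled where the gene passed the test of that setting and open where it did not. The points of pho1, pho84 and tgp1 lie between 0.52 and 1.15, and those of csk1 and vtc4 between 0.0060 and 0.28.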

How the data were processed

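Per the file headers, the authors used Agilent Feature Extraction 10.5.1.1 (GE2_105_Dec08) to read the intensity of each spot; the submitters' processing notes add Partek without saying what it did. Amplification started from 400 ng total RNA with oligo-dT priming, per the labels' protocols. The deposited scanner tables hold each spot's median intensity and that of its background, a processed intensity and a log10 ratio of Cy5 over Cy3; the calls of spots as outliers or well above background are the scanner software's (other values, 0 or 1, per the file headers). The authors' deposited value table holds log2 ratios, with no normalization stated: against the scanner ratios they run as mga2Δ over WT (r = 0.986 on each array), and each array has a mean near 0 and a median of −0.078 or −0.12. Both arrays lay on 1 slide and were scanned together, so no such batch could be tested.

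Median signals were background-corrected (normexp, offset 50) and loess-normalized (limma 3.58.1, R 4.3.3), giving control spots and outlier spots no weight. Outlier spots (3.57% and 3.36%) were left out, spots of a probe averaged and ratios turned to mga2Δ over WT. To be tested, a probe needed at least 2 spots that were no outliers and were well above background in Cy3, Cy5 or both on each array. Ratios were tested against 0 with lmFit and eBayes, two-sided, with Benjamini-Hochberg adjustment over 4964 genes. Channel signals are after loess and Aquantile normalization. Probes were named through a RefSeq gene table (ASM294v3; 5021 by locus tag, 3 by alias, 33 not), used for names and neighbours only. The steps were tested on simulated data. Tables used pandas 2.3.3 and scipy 1.17.1 under Python 3.11.15, and figures matplotlib 3.10.9.

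The members and the 4 context lists were chosen with earlier results of these data known. Genes named are the members, mga2 and sre1, up to 4 genes per list, those with the highest absolute mean ratio, the 2 annotated neighbours on each side of a member, and the 3 genes nearest to the member with the largest ratio. Other list members, prt2 and the further genes around pho1 and tgp1 were named after their values were seen. Of the list symbols, xpr1, vtc1, pho88, pho90, pho91 and erh1 were matched to no probe, and spx1 and vtc3 are aliases of pqr1 and vtc2. 1 gene of a list is not reported here and was left out of its list's counts. Alternatives were no background correction, offset 16, processed signals, median centring, scale normalization, spike-in centring (1 shift for both arrays), a filter on both channels, all probes, the deposited ratios, trend and robust eBayes, fewer prior degrees of freedom, an adjusted p of 0.10 and each array alone; counting outlier spots in the background filter was added after seeing the data.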

Additional observations from a re-analysis of the deposited data

How the results depend on the processing

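Among the 6 genes and the counts over all tested genes, results other than those below stayed on their side of the threshold, and no ratio of the 6 genes changed sign in the 13 alternative settings or on either array alone. The pho7 call rested on the setting: it was lost with median centring (0.33), processed signals (0.28, adjusted p = 0.0698), probes above background in both channels (0.29), the deposited ratios (0.24) or 2.81 prior degrees of freedom (0.29, adjusted p = 0.0994). With median centring pho1 (0.87), pho84 (0.52) and tgp1 (0.78) did not pass either, so 0 of the 6 genes were raised there, and over all tested genes 172 passed in place of 1456 (146 raised and 26 lowered, against 915 and 541). With 2.81 prior degrees of freedom pho84 (0.67) did not pass, 2 of the 6 genes were raised and 669 of all genes passed (493 and 176). Spike-in centring added csk1 (0.28, adjusted p = 0.0481) and vtc4 (0.28, adjusted p = 0.0441). Among 39 other genes followed through these fits (genes with the largest ratios in the lists, neighbours and the genes nearest to pho1), 20 passed, of which 13 lost the call in 1 other fit and 6 in more than 1, and 19 of the 20 lost it with median centring; of the 19 that did not pass, 9 passed in some other fit. The number raised and lowered over all tested genes was 750 and 1138 with the deposited ratios, 886 and 812 with processed signals, 1168 and 921 with trend and robust eBayes, and 1818 and 197 with spike-in centring; the cause was not tested. On array 1 or array 2 alone the log2 ratios ranged from 0.76 to 1.16 for pho1, 0.43 to 0.92 for pho84, 0.61 to 0.83 for tgp1, 0.26 to 0.32 for pho7, 0.03 to 0.17 for csk1 and 0.09 to 0.10 for vtc4, with no test and hence no count of calls. Pairing was already part of the test, because each ratio sets 1 mga2Δ sample against the 1 WT sample on its array. The series has 1 group of ratios, so no further paired analysis was possible. Signal over background limits tgp1 most among the 6 genes.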
